A study of Mus musculus with 9 samples.

Results

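The genes described here make, sense and move cholesterol. They are 29 genes, chosen by symbol from the 55401 genes of the deposited count table, and all 29 were among the 16762 genes with enough counts to be tested. They comprise 18 synthesis enzymes (7 of the mevalonate steps and 11 of the squalene and sterol steps), 4 regulators (Srebf2, Scap, Insig1 and Insig2), 3 genes of transport inside the cell (Stard4, Npc1 and Npc2) and 4 genes of efflux and its control (Abca1, Abcg1, Mylip and Nr1h2). The study placed primary neonatal mouse ventricular myocytes (NMVMs) in hypoxia with or without recombinant serglycin (rSRGN), a proteoglycan core protein, and sequenced their RNA. There were 3 libraries in each of 3 groups. All cells were wild type and came from C57BL/6J pups aged 1 day, grown in DMEM with 10% FBS. Control cells stayed in normal oxygen in this complete medium. Cells of the hypoxia group were given DMEM without glucose or serum and kept for 6 h in a closed chamber with an oxygen absorber, and cells of the hypoxia + rSRGN group had the same treatment with rSRGN in the medium. Loss of oxygen, of glucose and of serum therefore cannot be told apart in any comparison with control.

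Cells build cholesterol from acetyl-CoA through mevalonate, squalene and lanosterol, and several of the late steps consume molecular oxygen. When sterol in the endoplasmic reticulum is low, SCAP escorts SREBP-2, the product of Srebf2, to the Golgi, where cleavage frees a transcription factor that switches on the synthesis genes, whereas INSIG proteins hold the complex back when sterol is plentiful. Oxysterols activate the liver X receptors (LXRs), which raise the exporters ABCA1 and ABCG1 and the ubiquitin ligase MYLIP. Serum lipoproteins are the main outside source of cholesterol for cultured cells.

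Depth was 21669017 to 22781557 assigned fragments per control library, 16583985 to 18148474 per hypoxia library and 16640239 to 20826701 per hypoxia + rSRGN library. The label of the cells was checked with 10 cardiomyocyte markers, including Tnnt2 and Myh6, whose summed level was 40774 to 49810 CPM (fragment counts scaled by TMM to a common library size) in control. The summed level of the same markers was 3467 to 5199 CPM in hypoxia and 6567 to 6950 CPM with rSRGN. The cultures also held fibroblast RNA in every library, with 8 markers at 8657 to 10243 CPM in control, 17099 to 19890 in hypoxia and 18917 to 19478 with rSRGN. Fewer cells of a type and less RNA per cell cannot be told apart in such bulk samples. The labels do not say whether the 3 libraries of a group came from separate cultures or pups, so the p-values measure the spread between these libraries, which may be technical.

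Promoter windows of RefSeq (GRCm38.p6, from 250 bases before to 50 bases after an annotated start) were found for 23 of the 29 genes, in 29 windows. No window was matched for Fdps, Fdft1, Sqle, Stard4, Npc1 and Abcg1. The windows below are printed on the strand of the gene. Hmgcs1 is shown because, of the 23 genes with a window, it alone holds the sterol regulatory element searched. Hsd17b7, Tm7sf2 and Acat2 were chosen after their values were seen. They are the other enzyme below control and the enzymes with the largest rise that have a window. Capitals mark the sterol regulatory element (TCACNCCAC). They also mark the CCAAT box, which reads ATTGG on the opposite strand. The GC box is marked as GGGCGG or its reverse. The last motif marked is the E-box of the type CACGTG.
Hmgcs1 (chr13:119690101-119690400, plus strand): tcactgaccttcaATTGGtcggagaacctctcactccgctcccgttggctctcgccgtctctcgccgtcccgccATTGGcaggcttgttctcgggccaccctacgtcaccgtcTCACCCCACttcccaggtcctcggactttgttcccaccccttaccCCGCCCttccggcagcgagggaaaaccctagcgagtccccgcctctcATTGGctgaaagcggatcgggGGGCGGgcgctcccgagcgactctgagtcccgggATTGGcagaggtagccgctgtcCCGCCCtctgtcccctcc
Hsd17b7 (chr1:169969156-169969455, minus strand): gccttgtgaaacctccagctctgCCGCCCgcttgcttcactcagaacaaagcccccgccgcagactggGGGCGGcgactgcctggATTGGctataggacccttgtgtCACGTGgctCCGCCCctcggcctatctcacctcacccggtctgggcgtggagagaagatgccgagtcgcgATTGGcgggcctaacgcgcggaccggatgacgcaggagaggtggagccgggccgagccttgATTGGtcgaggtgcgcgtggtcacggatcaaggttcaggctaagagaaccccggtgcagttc
Tm7sf2 (chr19:6067801-6068100, minus strand): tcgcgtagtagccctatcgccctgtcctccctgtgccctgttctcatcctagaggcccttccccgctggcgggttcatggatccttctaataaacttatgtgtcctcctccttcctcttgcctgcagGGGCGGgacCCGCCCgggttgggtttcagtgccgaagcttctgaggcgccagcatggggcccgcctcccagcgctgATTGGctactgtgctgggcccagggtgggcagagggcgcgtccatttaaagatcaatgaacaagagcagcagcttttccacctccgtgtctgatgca
Acat2 (chr17:12960676-12960975, minus strand): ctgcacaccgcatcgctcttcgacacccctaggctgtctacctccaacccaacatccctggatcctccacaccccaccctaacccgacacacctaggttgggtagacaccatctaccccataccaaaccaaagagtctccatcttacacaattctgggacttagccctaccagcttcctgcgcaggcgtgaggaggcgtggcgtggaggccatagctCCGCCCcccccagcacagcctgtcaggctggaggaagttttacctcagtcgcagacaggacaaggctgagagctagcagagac
These motifs were searched on both strands, and none of the marked matches overlaps another. The Hmgcs1 window holds the element as TCACCCCAC, beginning 137 bases before the start, with 4 CCAAT boxes and 3 GC boxes. The Hsd17b7 window holds 3 CCAAT boxes, 3 GC boxes and 1 E-box. The Tm7sf2 window holds 1 CCAAT box and 2 GC boxes, and the Acat2 window holds 1 GC box alone. The synthesis enzymes had 18 windows from 15 genes, since Fdps, Fdft1 and Sqle have none and Dhcr7 has more than 1. Shares are per window, not per enzyme. Over these 18 windows, the CCAAT box was present in 77.8%, against 37.3% of the windows of all genes tested and 37.4% of all windows. The GC box was present in 83.3% of them, against 59.4% for the genes tested and 35.7% of all windows. The E-box was present in 16.7% of the enzyme windows, 9.56% of those of the genes tested and 7.15% of all windows. The sterol regulatory element was present in 5.56%, against 1.17% and 1.24%. These shares describe letters in a short window, and binding was not measured.

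The first comparison asked what 6 h of hypoxia in the poor medium did to these genes. Cholesterol synthesis genes were mostly higher in hypoxia than in control. Of the 18 enzymes, 13 were called higher and 0 lower. The median log2 fold change was 0.80 for them and 0.05 for all genes tested. A gene was called at a Benjamini-Hochberg adjusted p below 0.05 in edgeR's quasi-likelihood test across all genes and a fold change of at least 1.5, which is 0.585 on the log2 scale. Over the 29 members, 16 were called higher, 0 lower and 13 were not called, and the median was 0.62. The background is wide in this comparison, since 51.6% of all genes tested were called, 26.4% higher and 25.1% lower. At an unadjusted p below 0.05, 21 members were above control and 1, Hsd17b7, was below it. The share of all genes at an unadjusted p was not counted in any comparison. DESeq2 called 15 higher and 0 lower. With the adjusted p and no fold limit, 22 of 29 members passed, against 70.9% of all genes. The 3 hypoxia libraries did not overlap the 3 control libraries in 21 of 29 members, against 73% of all genes. Counted in either direction, the members' shares are near those of all genes, and all 16 calls are on the higher side.

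**Figure D1:**
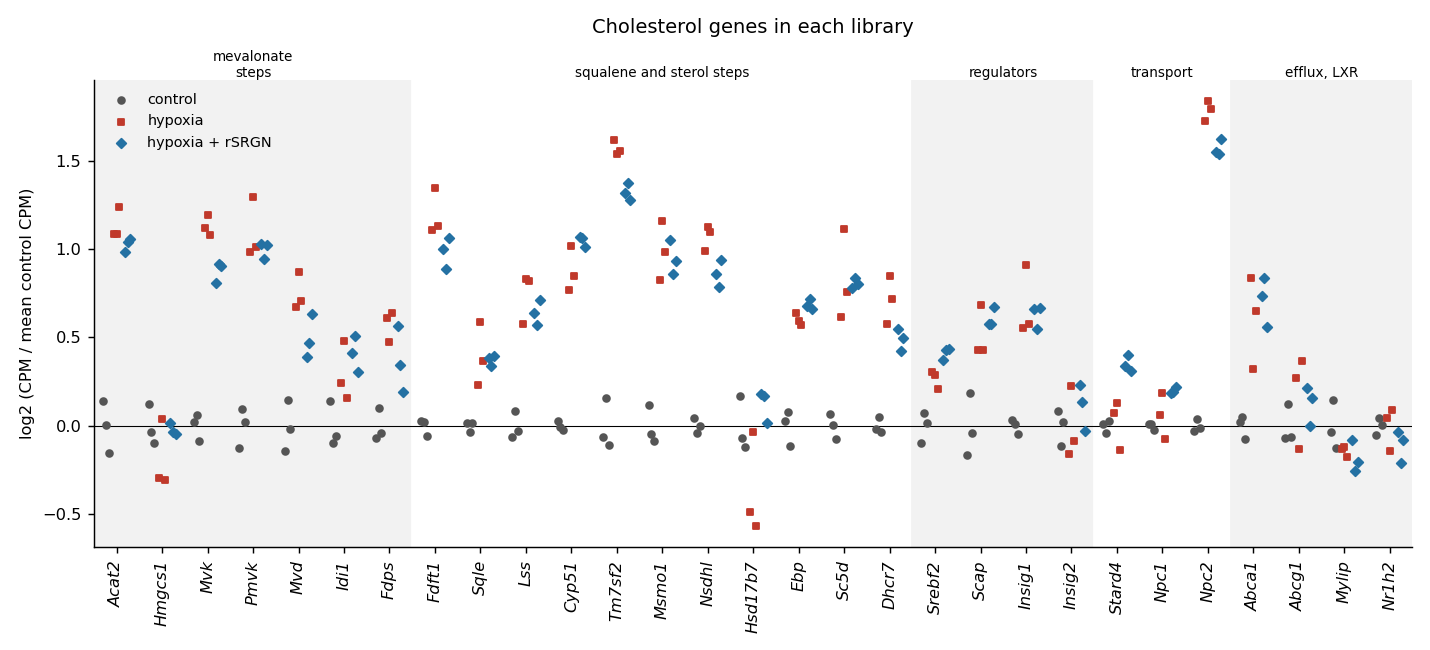
Level of each of the 29 genes in each of the 9 libraries, on the vertical axis as log2 of CPM over the mean CPM of the control libraries. Grey circles stand for control, red squares for hypoxia and blue diamonds for hypoxia + rSRGN, and shaded bands mark the roles. Most synthesis enzymes and Npc2 lie above the control points in both hypoxic groups, and Hmgcs1 and Hsd17b7 do not.

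The mevalonate steps split by enzyme. Acat2, the cytosolic thiolase that joins the first acetyl units, had 78.8, 71.7 and 64.2 CPM in control and 152, 152 and 169 CPM in hypoxia. Its log2 fold change was 1.14 (SE 0.08, n = 3 per group, edgeR adjusted p = 2.09e-11), and the groups did not overlap. Mvk, which phosphorylates mevalonate, had 42.8, 44.0 and 39.9 CPM in control and 91.7, 96.7 and 89.3 CPM in hypoxia, a log2 fold change of 1.13. Pmvk, the next kinase, had 40.7, 47.5 and 45.0 CPM in control and 87.7, 109 and 89.4 CPM in hypoxia, a log2 fold change of 1.10. Both kinases were above the range of control in every hypoxia library. Mvd, the decarboxylase that follows them, had 37.4 to 45.6 CPM in control and 65.8 to 75.2 CPM in hypoxia, a log2 fold change of 0.75. Idi1, the isomerase of the isoprene units, had 84.1 to 99.0 CPM in control and 100 to 125 CPM in hypoxia, a log2 fold change of 0.30. Fdps, which makes farnesyl diphosphate, had 9.30 to 10.5 CPM in control and 13.5 to 15.2 CPM in hypoxia, a log2 fold change of 0.57. Both passed the adjusted p (0.00467 and 0.000353 in edgeR) without reaching the fold limit. The change of Fdps is uncertain, since its near-identical copy Gm3571 had more counts in control (972 against 635) and a log2 fold change of 1.22. Fdps passed the limit without control replicate 2 (0.61) or hypoxia replicate 2 (0.62), and with scaling by library size alone (0.65).

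Hmgcs1, the enzyme that makes HMG-CoA, was not called. It had 406, 364 and 349 CPM in control and 304, 383 and 302 CPM in hypoxia. The hypoxia libraries 1 and 3 lie below all control libraries, and replicate 2 lies inside the control range. The log2 fold change was -0.18 (SE 0.09, edgeR adjusted p = 0.0702), short of the threshold, and without hypoxia replicate 2 it was -0.30 (adjusted p = 0.000483), still short of the fold limit. Its promoter window, printed above, is the only one of the 29 windows found that holds the sterol regulatory element. In all, 4 of the 7 mevalonate genes were called higher, and their median was 0.75.

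Of the genes of the squalene and sterol steps, 9 of 11 were called higher, and their median was 0.84. Fdft1, squalene synthase, had 116, 116 and 109 CPM in control and 245, 289 and 249 CPM in hypoxia, with a log2 fold change of 1.20 (SE 0.08, edgeR adjusted p = 5.77e-12). Tm7sf2, a sterol C14 reductase, had the largest rise of the enzymes, from 16.6, 19.3 and 16 CPM to 53.0, 50.2 and 50.9 CPM. That is a log2 fold change of 1.57, or 2.97-fold (SE 0.09, adjusted p = 1.24e-12), and the groups lie far apart. Nsdhl, which removes a methyl group at C4 as part of a complex, had 78.0, 73.5 and 75.5 CPM in control and 150, 165 and 162 CPM in hypoxia, a log2 fold change of 1.07. Lss, which closes the rings of lanosterol, had 110, 121 and 112 CPM in control and 171, 203 and 201 CPM in hypoxia, a log2 fold change of 0.75. All of these groups stood apart from control. Dhcr7, which reduces the B-ring double bond in the final steps, had 70.0, 73.6 and 69.4 CPM in control and 106, 128 and 117 CPM in hypoxia (log2 fold change 0.72). Ebp, the sterol isomerase, had 27.5, 28.4 and 24.9 CPM in control and 42.0, 40.7 and 40.0 CPM in hypoxia (log2 fold change 0.60). Ebp lies close to the fold limit, and its call was lost with DESeq2 (0.58), RLE scaling (0.58), a filter of at least 1 count (0.55), without control replicate 3 (0.54) and without hypoxia replicate 1 (0.58).

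The enzymes that use molecular oxygen were not lower in hypoxia. Cyp51, the lanosterol demethylase, had 278, 272 and 269 CPM in control and 465, 554 and 492 CPM in hypoxia (log2 fold change 0.88, SE 0.07, edgeR adjusted p = 3.97e-10). Msmo1, the C4 methyl oxidase, had 156, 139 and 136 CPM in control and 254, 320 and 284 CPM in hypoxia (log2 fold change 0.99). Sc5d, the C5 desaturase, had 108, 103 and 97.4 CPM in control and 157, 222 and 173 CPM in hypoxia (log2 fold change 0.84). None of these overlapped control. Sqle, squalene epoxidase, had 125, 120 and 125 CPM in control and 145, 185 and 159 CPM in hypoxia, and its log2 fold change of 0.40 passed the adjusted p (0.000111) but not the fold limit. The 4 oxygen-using enzymes had a median log2 fold change of 0.86, with 3 called higher, and the other 14 synthesis enzymes had a median of 0.75, with 10 called higher.

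Hsd17b7, the C3 ketosteroid reductase that acts after Nsdhl, was the synthesis enzyme with the lowest fold change. It had 144, 122 and 118 CPM in control and 91.1, 125 and 86.3 CPM in hypoxia. As for Hmgcs1, hypoxia libraries 1 and 3 lie below all control libraries and replicate 2 lies within them. Its log2 fold change of -0.34 (SE 0.11) passed the adjusted p (0.00681 in edgeR) and not the fold limit, and it was -0.53 without hypoxia replicate 2. Its window is printed above.

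**Figure D2:**
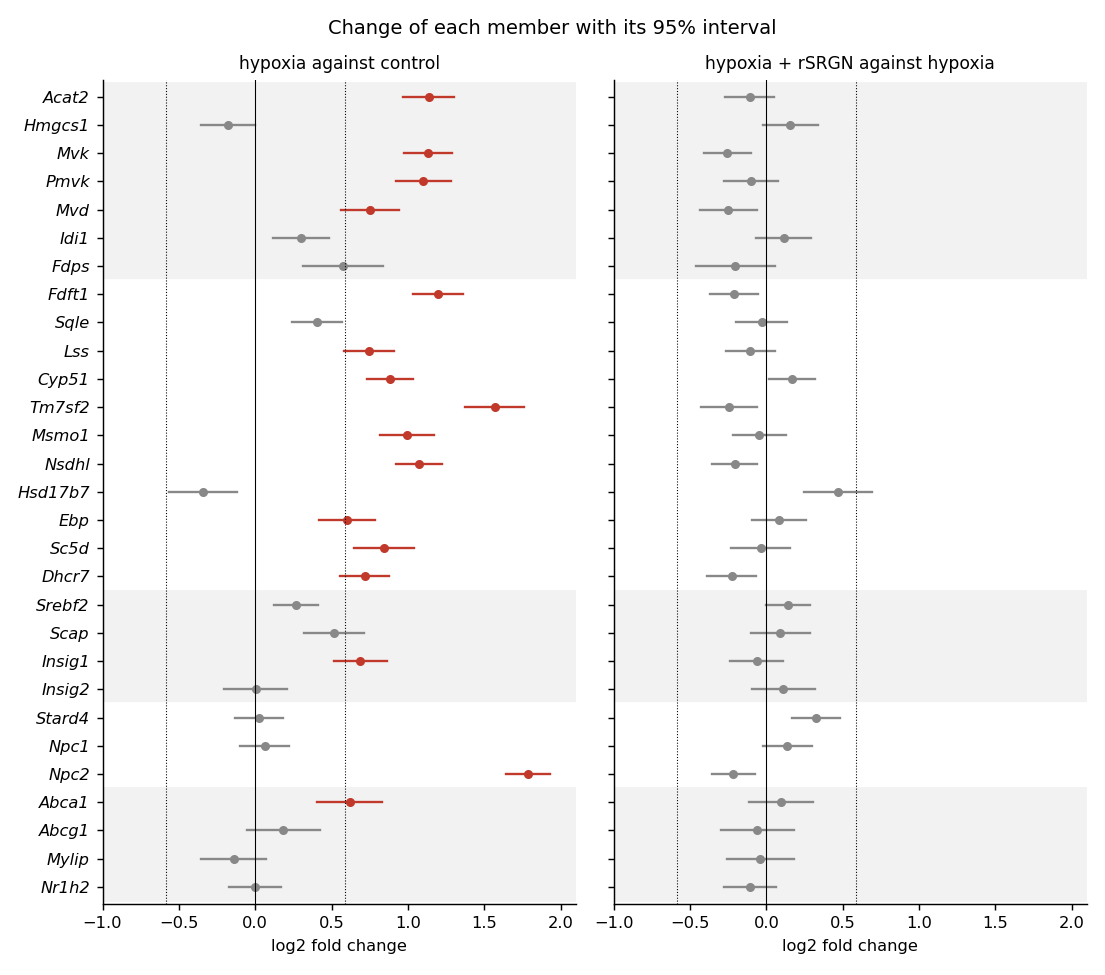
Log2 fold change of each of the 29 genes with its 95% interval from edgeR, for hypoxia against control on the left and hypoxia + rSRGN against hypoxia on the right. Red points were called higher, grey points were not called and the dotted lines mark a fold of 1.5 in either direction. On the left 16 genes are red, and on the right 0 are.

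Among the regulators, 1 of 4 was called higher. Insig1, which retains SCAP and is itself a target of SREBP, had 320, 315 and 302 CPM in control and 459, 586 and 466 CPM in hypoxia. Its log2 fold change was 0.69 (SE 0.08, edgeR adjusted p = 1.94e-07), and it was 0.56 without hypoxia replicate 2, below the fold limit. Srebf2 itself had 202, 227 and 219 CPM in control and 267, 264 and 250 CPM in hypoxia, without overlap, and its log2 fold change of 0.27 passed the adjusted p (0.00159) only. Scap, with 36.6 to 46.7 CPM in control and 55.3 to 65.9 CPM in hypoxia, had a log2 fold change of 0.52 with the same outcome, and it reached the fold limit without control replicate 2 (0.60) and with library size alone (0.585). Insig2, whose transcription depends less on SREBP, was level at 46.4 to 53.2 CPM in control and 45.0 to 58.7 CPM in hypoxia (adjusted p = 0.977). The log2 fold change of Insig2 lay within a 95% interval of -0.20 to 0.21.

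The transport genes held the largest rise of all 29. Npc2, the small protein that hands cholesterol to NPC1 in the lysosome, had 189, 198 and 191 CPM in control and 637, 687 and 667 CPM in hypoxia. The groups lie far apart, at 3.45-fold (log2 fold change 1.79, SE 0.07, edgeR adjusted p = 8.52e-16). Its partner Npc1, the lysosomal membrane transporter, had 66.6, 66.6 and 65.0 CPM in control and 68.8, 75.3 and 62.7 CPM in hypoxia, which overlap (log2 fold change 0.06, adjusted p = 0.483). Stard4, a soluble sterol carrier, also overlapped, with 103 to 108 CPM in control and 96.0 to 116 CPM in hypoxia (log2 fold change 0.03).

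On the efflux side, Abca1, the exporter that loads lipid onto apolipoprotein A-I, was called higher. It had 47.7, 48.6 and 44.5 CPM in control and 83.7, 58.6 and 73.7 CPM in hypoxia, with a log2 fold change of 0.62 (SE 0.10, edgeR adjusted p = 1.51e-05). Every hypoxia library was above control, but the call was lost without control replicate 3 (0.57), without hypoxia replicate 1 (0.50) and with a filter of at least 1 count (0.56). Abcg1, the exporter to mature HDL, overlapped control (log2 fold change 0.18, adjusted p = 0.155). Without hypoxia replicate 2 the value for Abcg1 was 0.32 (adjusted p = 0.00732), still short of the fold limit. Mylip overlapped control too, a ligase that targets lipoprotein receptors for breakdown (log2 fold change -0.14, adjusted p = 0.224). Nr1h2, which encodes LXRβ, had 55.7 to 59.3 CPM in control and 52.2 to 61.3 CPM in hypoxia (adjusted p = 0.994).

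Single libraries stood out on these genes. Hypoxia replicate 2 had the highest level of the 3 in 14 of the 18 synthesis enzymes and in 21 of the 29 members, where it was highest in 39.2% of all genes. Its median deviation from the group mean was 0.14 (log2) over the synthesis enzymes and 0.0165 over all genes. That library was lowest in 6 of the 29 members, which were Acat2, Fdps, Tm7sf2, Abca1 (58.6 CPM), Abcg1 (26.1 CPM) and Nr1h2. Hypoxia replicate 1 was lowest in 10 of the 18 enzymes, against 31% of all genes. Its median deviation was -0.0976 (log2) over the enzymes and 0.00528 over all genes. In control, replicate 1 was highest in 10 of the 18 enzymes, against 33.8% of all genes, and replicate 3 was lowest in 11, against 30.1%. The median deviations of these control libraries were 0.0284 and -0.0547 (log2). Without hypoxia replicate 2 the count of members called higher was again 16, and the median of the enzymes was 0.70 in place of 0.80.

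**Figure D3:**
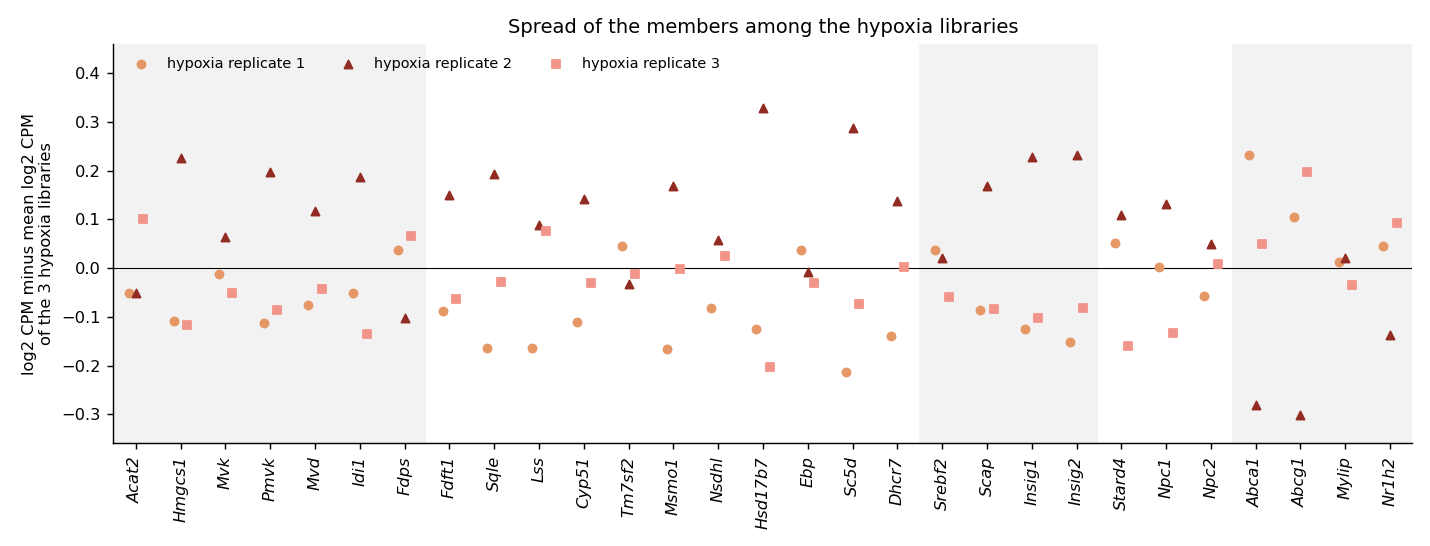
Spread of the 29 genes among the 3 hypoxia libraries, as log2 CPM minus the mean log2 CPM of those libraries. Circles, triangles and squares stand for replicates 1, 2 and 3. The triangles are highest for 21 of the 29 genes and lowest for 6, among them Acat2, Tm7sf2, Abca1 and Abcg1.

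Levels were also divided by the deposited exon length, which merges the exons of all transcripts of a gene. It exceeds the longest transcript unevenly (5438 against 3299 bases for Npc2, 4403 against 1498 for Tm7sf2, 3093 against 2697 for Insig1). The order of genes given here therefore holds for this length only. By it, Insig1 had the highest mean level of the members in control (101 CPM per kilobase), followed by Hmgcs1 (81.2) and Cyp51 (61.9). The lowest were Fdps (2.32), Abcg1 (3.92) and Tm7sf2 (3.93), where the level of Fdps is uncertain because it has near-identical copies that could take its fragments. In hypoxia Insig1 still led with 163 CPM per kilobase, and Npc2 (122) and Cyp51 (114) came next, as Npc2 rose from 35.4 in control. Hmgcs1 followed with 71.8 CPM per kilobase, before Fdft1 (63.4) and Acat2 (61.8). The means of Hmgcs1, Fdft1 and Acat2 in hypoxia are neighbours whose differences were not tested.

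**Figure D4:**
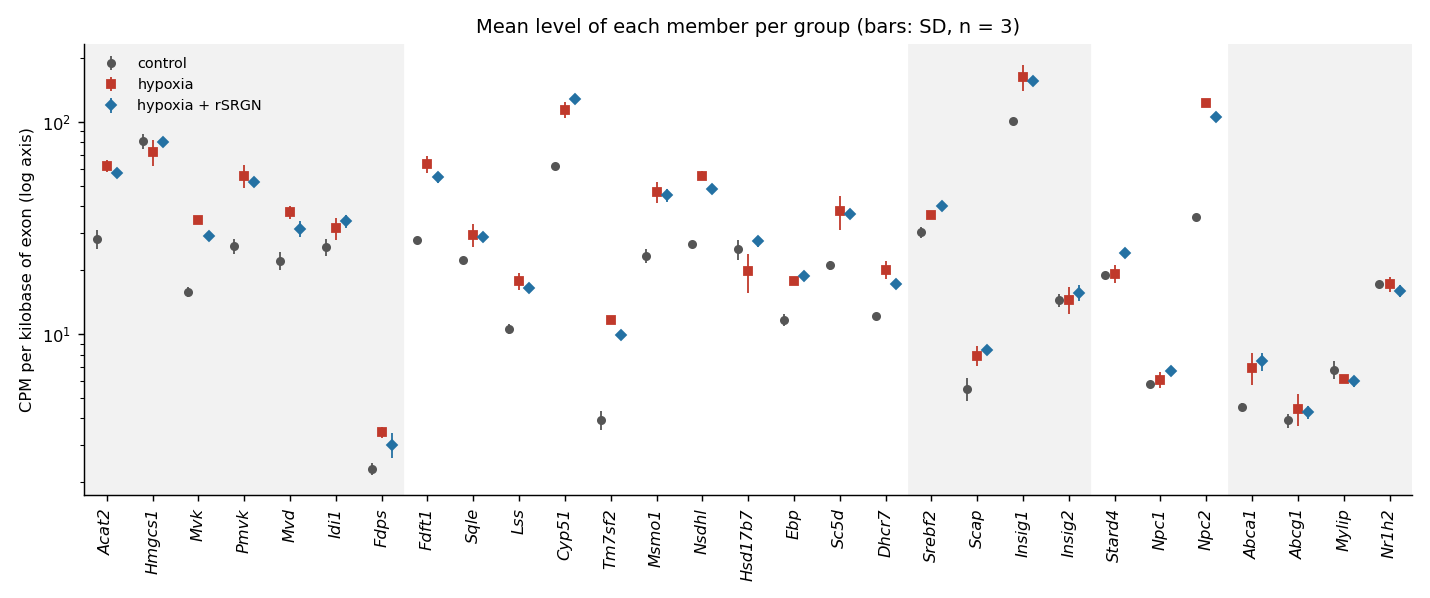
Mean level of each of the 29 genes in each group in CPM per kilobase of exon on a log axis, with the SD of 3 libraries as bars. Circles stand for control, squares for hypoxia and diamonds for hypoxia + rSRGN. By this merged exon length, Insig1 is highest in every group, and Fdps, whose count is uncertain, is lowest.

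Marker genes of the cell types moved in the same comparison. All 10 cardiomyocyte markers were called lower in hypoxia than in control (median log2 fold change -3.70), 7 of 8 macrophage markers were lower (median -2.77) and 5 of 6 endothelial markers were lower (median -1.08). Of the 8 fibroblast markers 6 were called higher (median 0.90) and 0 lower. The summed macrophage level was 223 to 240 CPM in control, 25 to 28.7 in hypoxia and 29.3 to 34.8 with rSRGN. Adgre1 and C1qa were at 0 in some of the hypoxia libraries, and 0 of the 8 markers were at 0 in all libraries. The summed level of the 18 synthesis enzymes was 1786 to 1942 CPM in control and 2700 to 3237 CPM in hypoxia. Divided by the fibroblast sum, it was 0.174 to 0.224 in control and 0.136 to 0.189 in hypoxia, which overlap. Most of that fibroblast sum is Col1a1, Col1a2 and Col3a1. Their means were 3594, 2449 and 2552 of 9603 CPM in control, and 8105, 4541 and 3948 of 18732 CPM in hypoxia. The 2 fibroblast markers not called were Pdgfra (log2 fold change 0.19) and Lum (0.29). Divided by the cardiomyocyte sum, it was 0.0359 to 0.0476 in control and 0.519 to 0.821 in hypoxia, which do not. The part that the change in marker levels has in the rise of the synthesis genes was not tested.

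**Figure D5:**
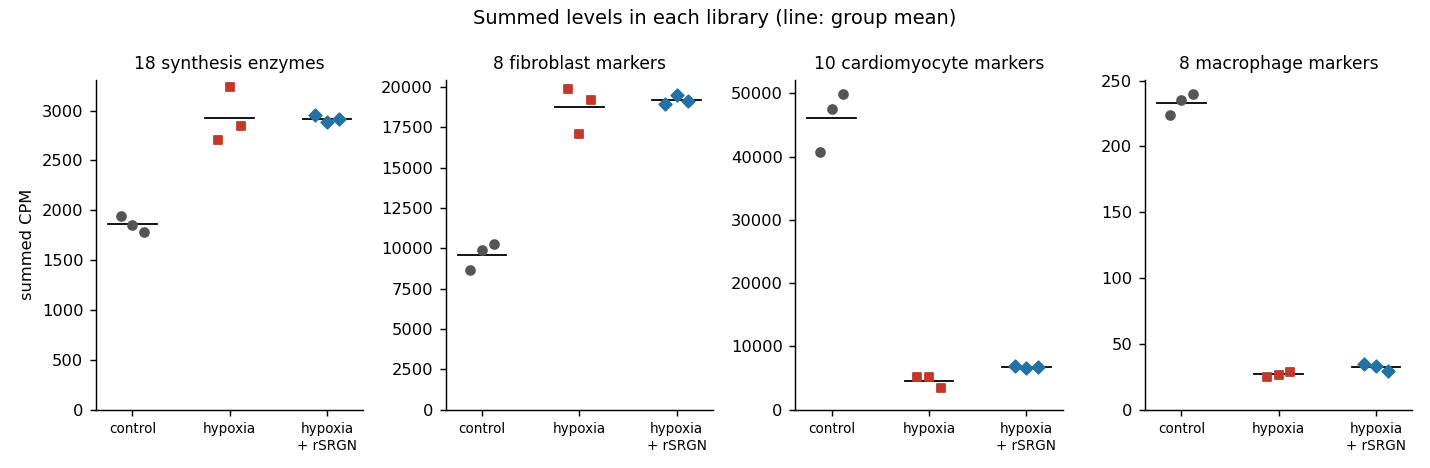
Summed CPM in each library of the 18 synthesis enzymes and of the fibroblast, cardiomyocyte and macrophage markers, on axes that start at 0 and differ in scale, with a line at each group mean. The sums of synthesis enzymes and of fibroblast markers are higher in both hypoxic groups than in control, and those of cardiomyocyte and macrophage markers are lower.

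The second comparison asked what rSRGN added to hypoxia changed. In hypoxia + rSRGN against hypoxia, edgeR called 0 of 29 members and DESeq2 called 0, where 3.13% of all genes were called, 2.27% higher and 0.859% lower. The median log2 fold change was -0.05 over the 29 members and -0.10 over the 18 synthesis enzymes, against -0.03 over all genes. The 95% intervals of 28 of the 29 members lay within a fold of 1.5 in both directions, so larger differences lie outside them. At an unadjusted p below 0.05 there were 10 members, 3 above and 7 below hypoxia, and the share of all genes at that threshold was not counted. With the adjusted p and no fold limit 6 passed, against 16.6% of all genes, and 12 did not overlap between the groups, against 32% of all genes.

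The 6 were small differences in either direction. Mvk had 91.7, 96.7 and 89.3 CPM in hypoxia and 73.8, 79.5 and 79.1 CPM with rSRGN (log2 fold change -0.26, SE 0.07, edgeR adjusted p = 0.0202). Npc2, at 637 to 687 CPM in hypoxia and 560 to 592 CPM with rSRGN, had a log2 fold change of -0.22 (adjusted p = 0.0319). Nsdhl and Dhcr7 had log2 fold changes of -0.21 (adjusted p = 0.0474) and -0.23 (adjusted p = 0.0476). All 4 were called higher in hypoxia against control, and with rSRGN their libraries lie between those groups. Both comparisons use the same hypoxia libraries. Stard4, which was level in hypoxia, had 111, 116 and 96.0 CPM there and 133, 140 and 131 CPM with rSRGN (log2 fold change 0.32, SE 0.08, adjusted p = 0.00564). The other 23 members, without Hsd17b7 and these 5, had log2 fold changes between -0.25 and 0.17.

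Hsd17b7 had the largest difference between the hypoxic groups. Its levels were 91.1, 125 and 86.3 CPM in hypoxia and 145, 144 and 129 CPM with rSRGN, so that all rSRGN libraries were above all hypoxia libraries and overlapped control (118 to 144 CPM). The log2 fold change was 0.47 (SE 0.11, edgeR adjusted p = 0.00485), with a 95% interval of 0.24 to 0.69 that reaches past the fold limit. Without hypoxia replicate 2 it was 0.65, the 1 member called in that setting. Hmgcs1 had 361 to 377 CPM with rSRGN, which overlapped hypoxia (302 to 383 CPM), and its log2 fold change of 0.16 did not pass (adjusted p = 0.234), and without hypoxia replicate 2 it was 0.28 (adjusted p = 0.00572). In the same setting the median of the 18 enzymes was -0.03. Of the cardiomyocyte markers 8 of 10 were called higher with rSRGN (median 0.77), of the fibroblast markers 1 of 8 was called lower, of the endothelial markers 1 of 6 was called higher (Kdr) and of the macrophage markers 0 of 8 were called. The part of this in the values of Hsd17b7 and Stard4 was not tested.

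The third comparison set hypoxia + rSRGN against the same control libraries. It called 15 of 29 members higher and 0 lower (0 lower in DESeq2 too, with 0 below control at an unadjusted p below 0.05), where 48.8% of all genes were called, 24.1% higher and 24.7% lower. The median log2 fold change was 0.61 over the members and 0.75 over the synthesis enzymes, of which 11 of 18 were called higher. The summed level of the enzymes was 2881 to 2956 CPM with rSRGN, inside the range of hypoxia (2700 to 3237 CPM) and above that of control (1786 to 1942 CPM), and divided by the fibroblast sum it was 0.148 to 0.156, below the 0.174 to 0.224 of control. Divided by the cardiomyocyte sum it was 0.425 to 0.439, above the 0.0359 to 0.0476 of control. Cyp51 had 573, 570 and 552 CPM with rSRGN, and Insig1 had 494, 457 and 495 CPM. Npc2 (log2 fold change 1.57), Tm7sf2 (1.32), Cyp51 (1.05), Acat2 (1.03) and Pmvk (1.00) had the largest values. Mvd (0.50) and Dhcr7 (0.49) fell short of the fold limit here, and Scap passed it with 0.61 (edgeR adjusted p = 6.11e-06). The call of Scap was lost without control replicate 1 (0.52), control replicate 3 (0.58) or hypoxia + rSRGN replicate 3 (0.57), and with a filter of at least 1 count (0.57). Srebf2 had 279 to 292 CPM with rSRGN and 202 to 227 CPM in control, a log2 fold change of 0.41 that passed the adjusted p (1.85e-05) only. Abca1 had 78.2, 83.6 and 69.2 CPM with rSRGN, a log2 fold change of 0.71 against control. Hmgcs1 overlapped control (log2 fold change -0.02, adjusted p = 0.843).

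Related genes of the pathway that are not members were called in both directions. Of 38 such genes, 8 were called higher and 9 lower in hypoxia against control, and their median was -0.15, where 26.4% of all genes were called higher and 25.1% lower and the median was 0.05. Among 5 genes of the isoprenoid branch 0 were higher and 1 lower. Among 9 genes of SREBP processing and regulated degradation 0 were higher and 3 lower, with a median of -0.46. Among 12 genes of uptake, storage and transfer 4 were higher and 4 lower. Among 12 genes of LXR signalling, efflux and oxysterols 4 were higher and 1 lower.

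The largest values came from genes of oxysterol and lipid handling. Ch25h, which makes 25-hydroxycholesterol, had a mean of 57.9 CPM in hypoxia and 4.14 CPM in control, a log2 fold change of 3.81 (SE 0.29, edgeR adjusted p = 9.15e-11). Its hypoxia libraries were at 39.6, 97.6 and 36.5 CPM, and without replicate 2 their mean was 38.1 CPM, 9.20 times that of control. Pltp, the phospholipid transfer protein, had a log2 fold change of 2.07, and Abcg4, a sterol exporter at low level here (1.95 CPM in hypoxia and 0.476 in control), one of 2.02. Nceh1, which frees cholesterol from its esters, had 8.70 CPM in hypoxia and 45.5 CPM in control (log2 fold change -2.39, adjusted p = 6.84e-15). Gramd1b, which moves sterol from the plasma membrane, had a log2 fold change of -2.02, and Vldlr, a lipoprotein receptor, one of -1.44. Between the hypoxic groups 1 of the 38 was called, against 3.13% of all genes. This was Nceh1, which was higher with rSRGN at 14.4 CPM (log2 fold change 0.72, adjusted p = 0.00023). Against control, hypoxia + rSRGN had 10 of the 38 higher and 10 lower, against 24.1% and 24.7% of all genes, among them Ch25h (3.92), Abcg4 (2.07), Pltp (1.98), Gramd1b (-2.10), Nceh1 (-1.67) and Pdss2, a subunit of the enzyme for the ubiquinone tail (-1.25).

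Some counts are uncertain because counting used no strand and some members share exonic bases with a neighbour or have near-identical copies. Fdft1 shares 774 exonic bases (18.8% of its length) with the abundant gene Ctsb on the other strand, whose log2 fold change in hypoxia was -0.01. Fdps has near-identical copies over 76.8% of its longest transcript, among them the pseudogene Gm3571, which had 972 counts over the control libraries where Fdps had 635. Gm3571 had a log2 fold change of 1.22 in hypoxia against control, larger than that of Fdps, so the level and change of Fdps are uncertain. Acat2 has such stretches over 65.6% of its transcript, shared with Acat3 and Tcp1, and Idi1, Insig1 and Fdft1 over 22.6%, 7.01% and 33.7%. Acat3 had 13 counts over the control libraries and 61 over the hypoxia libraries. The level of Tcp1 was not examined, so its part in the count of Acat2 is not known. On the same strand, Fdps shares 26.7% of its length with Gm43738 and Tm7sf2 shares 12.1% with Vps51, and Hmgcs1, Scap, Cyp51, Npc1, Lss and Idi1 share up to 13.2% with genes on the opposite strand.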

How the data were processed

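RNA was taken with Trizol from 9 NMVM libraries, poly(A)-enriched and sequenced on an Illumina NovaSeq. The authors' deposited values are raw counts of fragments for each gene, not normalized. Per the file headers, featureCounts 2.0.1 counted read pairs over exons of GENCODE M25 with no strand option, and the submitters' processing notes name HISAT2 and mm10. A deposited column holds exon length (bases), used for levels per kilobase. All 9 count columns were used. The members and lists were chosen with earlier results of these data known.

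In R 4.3.3, edgeR 4.0.16 was used: filterByExpr kept 16762 of 55401 genes, counts were scaled by TMM, all 9 libraries were fitted with a mean per group and groups were compared by the two-sided quasi-likelihood test with Benjamini-Hochberg adjustment over all genes kept. A gene was called at adjusted p below 0.05 and a fold of at least 1.5. Values per library are TMM-scaled CPM. SEs and 95% intervals came from the same fit, which was tested on simulated data. All members are named, and of 38 related genes the 3 largest rises and falls among called genes with a mean of at least 1 CPM. Pairs of libraries within a group differed by more than sampling noise (chi-square per degree of freedom 3.63 to 13.1). Same-numbered libraries did not deviate together over all genes (r from -0.0374 to 0.0215, against -0.0477 to 0.046 for other pairs). These values include the sampling noise of low counts. They do not settle whether such libraries shared a culture or pups, and the main fit was unpaired. Near-identical copies were searched in GENCODE M21 transcripts with BLAST 2.17.0 (at least 95% identity over 150 bases). Figures were drawn with matplotlib 3.10.9. Alternatives were DESeq2 1.42.0, other scalings and filters, no fold limit, the unadjusted p, a fit of only the groups compared, a replicate block and each library left out. The mean level of the named related genes without hypoxia replicate 2 was added after seeing the data.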

Additional observations from a re-analysis of the deposited data

How the results depend on the processing

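Over DESeq2, RLE scaling, library size alone, filters of at least 1 count in all or 10 counts in every library, a fit of only the groups compared and a replicate block, 14 to 18 members were called in hypoxia against control, 0 in hypoxia + rSRGN against hypoxia and 13 to 15 in hypoxia + rSRGN against control. The replicate block gave 16, 0 and 15. With no fold limit there were 22, 6 and 23. Leaving out 1 library at a time gave counts of 14 to 18, 0 to 1 and 14 to 15. The median log2 fold change of the 18 synthesis enzymes was then 0.695 to 0.880 in hypoxia against control, and -0.149 to -0.0277 between the hypoxic groups. The 1 came without hypoxia replicate 2 (Hsd17b7).

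Members near 0 changed sign. For Insig2 in hypoxia against control, the log2 fold change was -0.0212 with DESeq2, -0.0213 with RLE scaling, -0.0512 with at least 1 count, -0.00173 with at least 10 counts, -0.000192 with the replicate block and -0.0084 with only the groups compared. For Nr1h2 the same settings gave -0.0235, -0.0235, -0.0527, -0.00403, -0.00278 and -0.0097. Stard4 was at -0.0276 with at least 1 count. Hmgcs1 in hypoxia + rSRGN against control was at 0.0256 with library size alone. When 1 library was left out, hypoxia against control ran from -0.124 to 0.0786 for Insig2, -0.0469 to 0.0645 for Nr1h2, -0.0294 to 0.101 for Stard4 and -0.00802 to 0.123 for Npc1. Hmgcs1 in hypoxia + rSRGN against control ran from -0.0744 to 0.0362. In hypoxia + rSRGN against hypoxia the ranges were -0.0297 to 0.221 for Abca1, -0.193 to 0.0415 for Abcg1, -0.125 to 0.0623 for Insig1, -0.124 to 0.0436 for Msmo1, -0.087 to 0.00125 for Mylip, -0.159 to 0.00426 for Pmvk, -0.139 to 0.122 for Sc5d and -0.11 to 0.0723 for Sqle. The cause was not tested. The share of higher among all genes called between the hypoxic groups was 72.6% with TMM, 80.2% with DESeq2 and 66.9% with library size alone. With 3 libraries a group, differences below the intervals given for each gene could not be told from 0.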
